A study of Caenorhabditis elegans with 10 samples.

Results

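The genes described here encode the insulin, TOR, AMP-activated kinase (AMPK) and autophagy machinery of *Caenorhabditis elegans*, and the question is which of their RNAs came down with DLC-1. DLC-1 is a small protein of the LC8 class, which serves as a light chain of dynein and also binds many partners outside the motor. The 40 genes were named by pathway: 10 of insulin and PI3-kinase signalling, 9 of the TOR complexes and their regulators, 11 of AMPK, its upstream kinase and a coactivator it acts on, and 10 of autophagy. Membership was read by exact gene name in the authors' deposited table of enriched RNAs, which holds 2732 genes. Of the 40, 17 were listed and 23 were not.

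The samples were 5 immunoprecipitates, made with an antibody against FLAG from cleared extract of whole young adult worms, and 5 inputs of such extract, with which they were compared. All 10 samples carry 3xFLAG::DLC-1, so no sample shows what the antibody recovers without the tag. Per the labels, input libraries began with oligo-dT priming and immunoprecipitated RNA was used without an enrichment step, so the pull-down and the library preparation cannot be told apart as sources of a fold change. Both groups are numbered from 1 to 5 in the labels, which do not say whether the numbers mark separate cultures, so p-values measure the spread between these samples, which may be technical. No values per library are in the deposited table. Depth per library is therefore unknown, and each gene has 1 mean, 1 fold change and 1 standard error (SE) over all libraries.

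Insulin signalling runs from the receptor DAF-2 through PI3-kinase to the kinases PDK-1, AKT-1, AKT-2 and SGK-1, which keep the transcription factor DAF-16/FOXO out of the nucleus. In the worm it controls dauer formation, lifespan and the growth of the germline. TOR kinase works in one complex with Raptor and in another with Rictor and promotes growth when nutrients are plentiful, while AMPK answers low energy. Autophagy, restrained by TOR and promoted by AMPK, encloses cytoplasm in a double membrane and delivers it to lysosomes.

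In the authors' deposited table all 17 listed members were higher in FLAG immunoprecipitates than in inputs, as its threshold of 2-fold requires. Those described below were higher by 1.17 to 6.39 on the log2 scale. The share of members listed, 42.5% (17 of 40), stands beside 13.4% of the 20328 genes that the authors tested. It also stands beside 10.6% of the protein-coding genes of the reference. These shares do not allow for gene span with introns, which has a median of 5905 bp in the 40 members. Of all protein-coding genes, 2.24% of those under 2 kb and 54.1% of those of 10 kb or more were listed. The median log2 fold change of the 17 in the authors' deposited table was 2.20, against 1.81 for all 2116 listed protein-coding genes. Only genes above 2-fold and under an adjusted p of 0.01 are in that table, so the median describes members that had passed and not the 40. Unlisted members may have been unchanged, lower, enriched by less than 2-fold or too low to test, and these cannot be separated here. The extracts are of whole worms, so RNA from all tissues is pooled in both groups. For a low count in the inputs, fewer cells of a type and less RNA per cell cannot be told apart. Of the tissue markers looked for in the authors' deposited table, 3 of 7 germline genes were listed (*gld-1*, *glp-1* and *nos-3*), 3 of 5 intestine genes (*vit-2*, *vit-6* and *pept-1*) and 3 of 4 muscle genes (*unc-54*, *myo-3* and *unc-15*). Of the neuronal markers 2 of 4 were listed (*unc-13* and *rgef-1*), and of the hypodermal ones 1 of 4, the cuticle collagen gene *bli-1*.

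By pathway, 6 of 11 AMPK genes, 5 of 10 insulin genes, 3 of 9 TOR genes and 3 of 10 autophagy genes were listed. The share was 54.5% for AMPK and 33.3% for TOR. The median log2 fold change of those listed in the authors' deposited table was 2.52 for AMPK, 2.40 for TOR, 2.34 for autophagy and 1.43 for insulin. The insulin genes thus had the lowest median fold of the 4 pathways. These counts describe lists of 9 to 11 genes and no difference between pathways was tested.

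**Figure D1:**
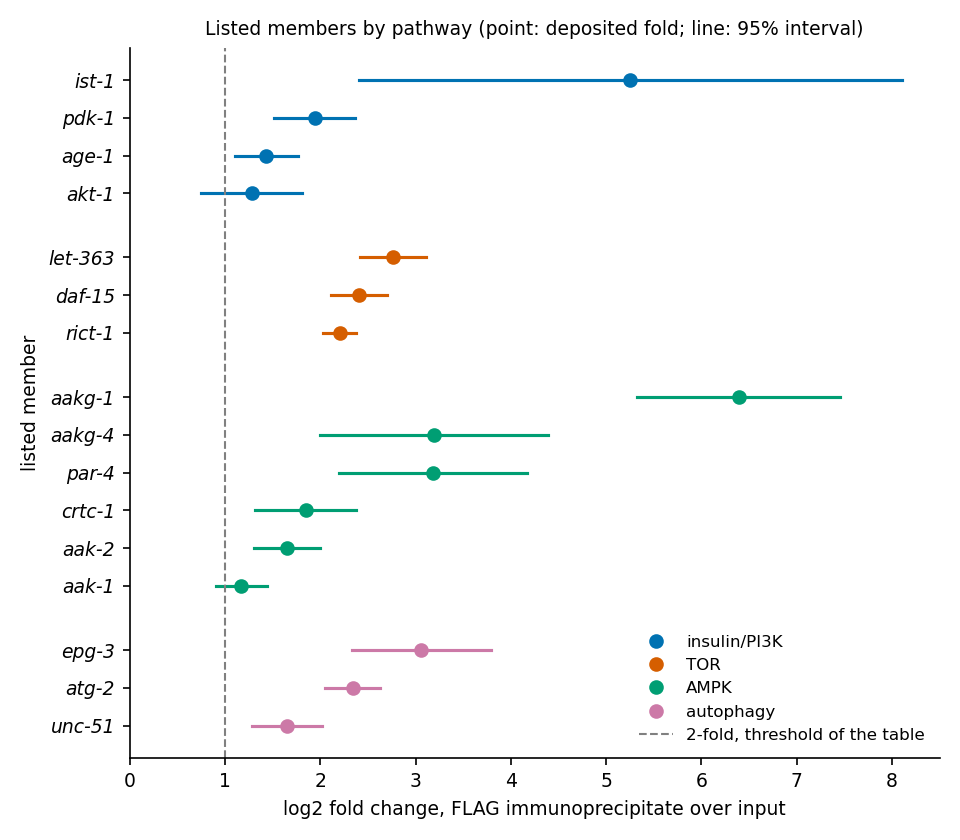
Log2 fold change of FLAG immunoprecipitate over input (horizontal axis) for 16 of the 17 listed members, grouped and coloured by pathway. Points are the deposited values, lines are 95% intervals from the deposited standard errors, and the dashed line marks 2-fold. The AMPK gene *aakg-1* stands highest at 6.39, the interval of *ist-1* is the widest, and the 3 TOR genes lie between 2.20 and 2.77.

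In the insulin pathway *age-1*, *pdk-1*, *akt-1* and *ist-1* were among the listed genes. The receptor gene *daf-2*, *aap-1*, *akt-2*, *sgk-1* and *daf-16* were not listed. *age-1*, the catalytic subunit of PI3-kinase, stood at 1.43 ± 0.17 (log2 fold ± SE) with a mean normalized count of 631 in the authors' deposited table. *pdk-1*, the kinase that binds the lipid product of AGE-1 and activates AKT, stood at 1.94 ± 0.22 with a mean of 216 in the authors' deposited table. *akt-1*, a kinase that phosphorylates DAF-16, stood at 1.28 ± 0.27 with a mean of 1064 in the authors' deposited table. Of these 3, *pdk-1* was the highest. It exceeded *akt-1* by 0.66 with a combined SE of 0.35 and *age-1* by 0.51 with a combined SE of 0.27, both within 2 combined SEs, and *age-1* exceeded *akt-1* by 0.15 with a combined SE of 0.32. With the null set at 2-fold, a one-sided test computed from the deposited folds and SEs, *pdk-1* passed at a Benjamini-Hochberg adjusted p of 0.000144, while *age-1* (0.0637) and *akt-1* (1) did not.

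*ist-1*, an insulin receptor substrate homologue that links the receptor to PI3-kinase, had few reads. It had a log2 fold change of 5.26 ± 1.46 (SE) in the authors' deposited table on a mean of only 2.92 normalized counts, with an adjusted p of 0.00107. If all 10 libraries entered that mean in equal parts, fold and mean together would correspond to about 5.69 normalized counts per immunoprecipitate and 0.149 per input, so the size of this fold rests on a few reads.

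Not listed were the receptor *daf-2*, the PI3-kinase adaptor *aap-1*, the kinases *akt-2* and *sgk-1*, and *daf-16*. *akt-1* was thus listed without its paralogue *akt-2*. The insulin-like ligands were also absent, with 0 of 40 genes listed (*daf-28* and the *ins* genes). The median span of these ligand genes is 649 bp, and of all protein-coding genes under 2 kb only 2.24% were listed. Of 27 further genes that act on the pathway or downstream of DAF-16, 6 were listed, or 22.2%, beside 13.4% of all genes tested. In the authors' deposited table the nuclear hormone receptor gene *daf-12* stood at 2.85 ± 0.32, the DAF-16 cofactor gene *smk-1* at 2.26 ± 0.18 and the deubiquitinase gene *math-33* at 1.74 ± 0.16 (log2 fold ± SE). The others in the authors' deposited table were *hcf-1*, which encodes a nuclear partner of DAF-16, at 1.69, the peroxisomal catalase gene *ctl-2* at 1.53 and the PP2A subunit gene *pptr-1*, which acts on AKT-1, at 1.32.

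Of the 9 TOR members, the listed ones were the kinase and the scaffold subunit of each of its complexes, and none of the GTPase or GATOR1 genes among the 9 was listed. *let-363*, TOR kinase itself (chromosome I, 5245743 to 5263426, WBcel235), stood at 2.77 ± 0.18 (log2 fold ± SE), or 6.81-fold, in the authors' deposited table. *daf-15*, the Raptor homologue of the first complex (chromosome IV, 9386208 to 9394979), stood at 2.40 ± 0.15, or 5.29-fold, in the authors' deposited table. *rict-1*, the Rictor homologue of the second (chromosome II, 13098239 to 13116810), stood at 2.20 ± 0.088, or 4.61-fold, in the authors' deposited table. Each had a mean above 1000 normalized counts, and the adjusted p in the authors' deposited table was 1.46e-53 for *let-363*, 4.94e-57 for *daf-15* and 1.18e-136 for *rict-1*.

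The 3 TOR folds lay within a narrow range. *let-363* exceeded *rict-1* by 0.56 on the log2 scale (combined SE 0.20, 95% interval 0.18 to 0.95), and it exceeded *daf-15* by 0.36 (combined SE 0.23, 95% interval -0.090 to 0.82). The difference of *daf-15* over *rict-1* was 0.20 (combined SE 0.17). Such intervals treat the 2 estimates as independent, although both come from the same libraries. All 3 genes also passed with the null at 2-fold.

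The 6 unlisted TOR genes were the S6 kinase gene *rsks-1*, the small GTPase gene *rheb-1*, the Rag GTPase genes *raga-1* and *ragc-1*, and *nprl-2* and *nprl-3*, homologues of subunits of the GATOR1 complex that restrains TOR in other species. Their spans ranged from 1319 to 7162 bp, against 8772 to 18572 bp for the 3 listed genes. Of 15 further genes of this pathway 4 were listed, or 26.7%, beside 13.4% of all genes tested. In the authors' deposited table the translation initiation factor gene *ifg-1*, the eIF4G homologue, stood at 2.49 ± 0.22, the sestrin gene *sesn-1* at 1.63 ± 0.37, the folliculin gene *flcn-1* at 1.58 ± 0.15 and the FOXA transcription factor gene *pha-4* at 1.27 ± 0.31 (log2 fold ± SE). Raptor and Rictor were thus listed, and *mlst-8* and *sinh-1*, for smaller subunits of the same complexes, were not.

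AMPK is a trimer of a catalytic alpha, a scaffolding beta and a nucleotide-sensing gamma subunit, and in the worm each kind has several genes. Both alpha genes and 2 of 5 gamma genes were listed, and neither beta gene. *aak-2* stood at 1.65 ± 0.18 (log2 fold ± SE) with a mean normalized count of 391 in the authors' deposited table. *aak-1* stood at 1.17 ± 0.14 with a mean of 271 in the authors' deposited table. The catalytic paralogues differed by 0.48 (combined SE 0.22, 95% interval 0.037 to 0.92), with *aak-2* the higher. With the null at 2-fold, *aak-2* passed at a Benjamini-Hochberg adjusted p of 0.00228 in the test computed from the deposited values, and *aak-1* did not (0.949).

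The gamma subunit gene *aakg-1* (chromosome III, 12538664 to 12575401, WBcel235) had the highest fold of the 17. Its log2 fold change in the authors' deposited table was 6.39 ± 0.54 (SE), or 83.9-fold with a 95% interval of 40.2 to 175, on a mean of 273 normalized counts (adjusted p 9.71e-31). Under equal weights of the 10 libraries that mean would correspond to about 539 normalized counts per immunoprecipitate and 6.43 per input, so the gene was low in the inputs. Among the 1602 listed protein-coding genes whose mean normalized count was 100 or more, 57 had a higher fold. *aakg-4* (chromosome X, 2314894 to 2319338), another gamma gene, stood at 3.19 ± 0.61 on a mean of 26.2 in the authors' deposited table. *aakg-1* exceeded it by 3.20 (combined SE 0.82, lower 95% bound 1.60). Not listed were the other gamma genes *aakg-2*, *aakg-3* and *aakg-5* and the beta genes *aakb-1* and *aakb-2*.

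The members *par-4*, upstream of AMPK, and *crtc-1*, downstream of it, were listed too. *par-4*, the LKB1 kinase that activates AMPK and acts in the polarity of the early embryo (chromosome V, 18098687 to 18106405), stood at 3.19 ± 0.50 (log2 fold ± SE), or 9.11-fold, with a mean normalized count of 395 in the authors' deposited table. *crtc-1*, a CREB coactivator that AMPK holds in the cytoplasm, stood at 1.85 ± 0.27 with a mean of 69.0 in the authors' deposited table. Its partner *crh-1*, the CREB homologue and no member of the 40, stood at 3.86 ± 0.32 (log2 fold ± SE) in the authors' deposited table.

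Of 12 further AMPK genes 8 were listed, or 66.7%, the highest share of the additional pathway lists, beside 13.4% of all genes tested. Besides *crh-1* they include the acetyl-CoA carboxylase gene *pod-2*, whose homologue is a classic AMPK substrate in mammals, at 2.14 ± 0.12 (log2 fold ± SE) in the authors' deposited table. Kinases related to AMPK made up 4 of them, *sad-1* at 2.49, *par-1* at 2.39, *kin-29* at 1.47 and *unc-82* at 1.47 (log2 fold) in the authors' deposited table. The others in the authors' deposited table were *mop-25.2*, homologous to the MO25 partner of LKB1, at 1.44, and the triglyceride lipase gene *atgl-1* at 1.13. Not listed were *strd-1*, *mop-25.1*, *mop-25.3* and *ckk-1*. The list of 12 has long genes, with a median span of 11879 bp, and of all protein-coding genes of 10 kb or more 54.1% were listed.

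In autophagy 3 of 10 members were listed, the initiating kinase gene *unc-51* and the membrane genes *epg-3* and *atg-2*. The ubiquitin-like proteins of the autophagosome were not listed, and neither were *epg-6*, which works with ATG-2, and *atg-9*. *epg-3*, the homologue of the endoplasmic reticulum protein VMP1 (chromosome III, 12934717 to 12942288, WBcel235), stood at 3.06 ± 0.37 (log2 fold ± SE), or 8.35-fold, with a mean normalized count of 276 in the authors' deposited table. *atg-2*, a lipid transfer protein at the growing membrane (chromosome X, 6809095 to 6817214), stood at 2.34 ± 0.15, or 5.07-fold, with a mean of 990 in the authors' deposited table. *unc-51*, the Atg1/ULK kinase that starts autophagy and also acts in axon growth (chromosome V, 19995986 to 20004485), stood at 1.65 ± 0.19, or 3.14-fold, with a mean of 393 in the authors' deposited table. *atg-2* exceeded *unc-51* by 0.69 (combined SE 0.24, 95% interval 0.22 to 1.16), and the difference of *epg-3* over *atg-2*, 0.72, had a 95% interval of -0.067 to 1.51.

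Not listed were the Atg8 genes *lgg-1* and *lgg-2*, the Beclin gene *bec-1*, the transmembrane protein gene *atg-9*, *epg-6*, a WD40 protein that works with ATG-2, the tethering factor gene *epg-5* and *hlh-30*, the TFEB homologue that transcribes autophagy and lysosome genes. Of 33 further autophagy and lysosome genes 4 were listed, or 12.1%, close to the 13.4% of all genes tested. In the authors' deposited table *vps-11* and *vps-18*, whose products tether membranes to lysosomes, stood at 2.51 ± 0.27 and 1.94 ± 0.12, the scaffold gene *epg-7* at 1.74 ± 0.20 and *vps-15*, the regulatory kinase of the autophagy lipid kinase, at 1.51 ± 0.14 (log2 fold ± SE). Genes of the conjugation steps, among them *atg-3*, *atg-5*, *atg-7*, *atg-10*, *lgg-3* and *atg-16.2*, were not listed. Also unlisted were *atg-13*, *epg-9* and *atg-18*.

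**Figure D2:**
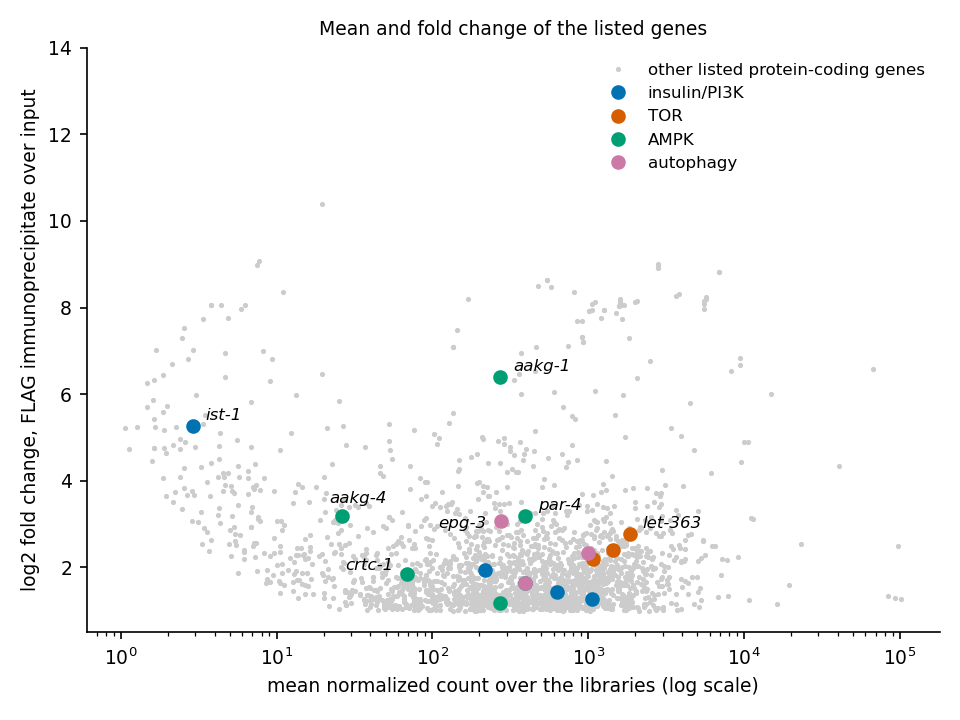
Mean normalized count over the libraries (horizontal, log scale) against log2 fold change of FLAG immunoprecipitate over input (vertical) for listed protein-coding genes in grey and 16 of the 17 listed members in colour by pathway. *aakg-1* and *ist-1* have the highest points of the members, at means of 273 and 2.92, and *let-363* has the highest mean of those drawn, 1845.

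Ranked by fold, *aakg-1* and *ist-1* stood first and second, and *aakg-1* exceeded *aakg-4*, the third, by 3.92 combined SEs. Of the 16 steps between neighbours, 13 were smaller than the combined SE of the pair, and 0 exceeded 2 combined SEs. The 3 steps past 1 combined SE were those of *ist-1* over *aakg-4*, *let-363* over *daf-15* and *rict-1* over *pdk-1*. The step of 2.07 below *ist-1* is within 2 combined SEs with the SE of 1.46 that *ist-1* has. The order of single neighbours is therefore not resolved. With the null at 2-fold, 11 of the 17 had a Benjamini-Hochberg adjusted p under 0.01. So did 1350 of the 2732 listed genes, which are 6.64% of all genes tested. The 6 members that did not pass include *aak-1*, *akt-1*, *age-1*, *crtc-1* and *ist-1*, and 4 of the 5 listed insulin genes were among them. At 4-fold or more stood 9 of the 17 members and 1465 of the 2732 listed genes (7.21% of all genes tested). An adjusted p under 1e-05 was found for 16 of the 17 and for 1891 of the 2732 (9.3% of all genes tested). A mean normalized count of 100 or more was reached by 14 members and by 1676 listed genes. One of 1000 or more was reached by 5 members, among them *let-363*, *daf-15*, *rict-1* and *akt-1*, and by 549 listed genes. These listed genes make up 8.24% and 2.7% of all genes tested, and the means of unlisted genes are not known.

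Gene span, which the choice of members did not use, differed between listed and unlisted members. The 17 listed members had a median span of 7719 bp with introns (3941 to 36738), and the 23 unlisted ones 3285 bp (760 to 46333). Over all protein-coding genes of the reference the medians were 5615 bp for the 2116 listed and 1844 bp for the 17867 unlisted. Members under 2 kb were listed in 0 of 6 cases, those of 2 to 5 kb in 3 of 13, those of 5 to 10 kb in 10 of 12 and those of 10 kb or more in 4 of 9. The shares for all protein-coding genes in these classes were 2.24%, 10.2%, 30.7% and 54.1%. In the class of 5 to 10 kb the unlisted members were *sgk-1* and *rsks-1*. In the longest class *daf-2*, *daf-16*, *hlh-30*, *epg-5* and *atg-9* were not listed. How far span and listing are linked through the library preparation was not tested, and the reference used here gives no transcript lengths.

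**Figure D3:**
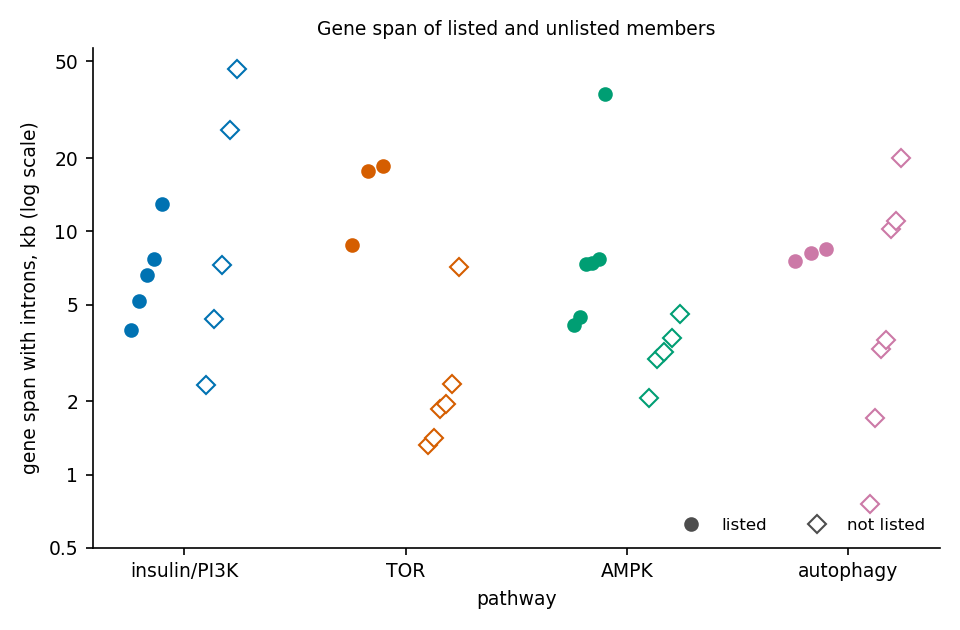
Gene span with introns in kb (vertical, log scale) of the 40 members by pathway, with filled circles for listed and open diamonds for unlisted members. In TOR and autophagy all 6 listed genes span over 7 kb, in TOR the 6 unlisted genes are all shorter than the listed ones, and the longest member of all, *daf-2*, is unlisted.

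**Figure D4:**
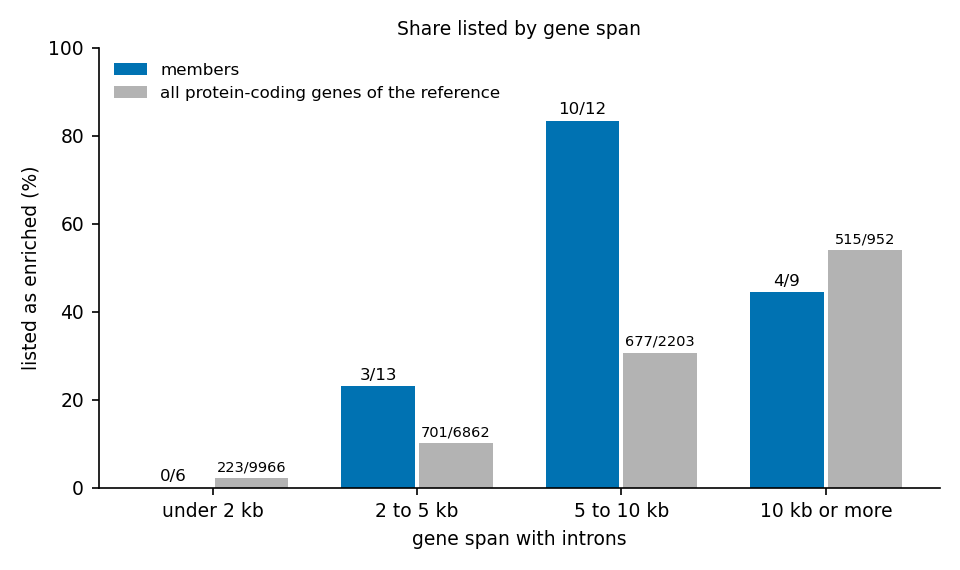
Percentage of genes listed as enriched (vertical) in 4 classes of gene span, for the members (blue, left) and all protein-coding genes of the reference (grey, right), with counts above the bars. Members reach 10 of 12 in the class of 5 to 10 kb, 4 of 9 at 10 kb or more and 0 of 6 under 2 kb. The shares of all protein-coding genes in these classes are 30.7%, 54.1% and 2.24%.

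Among the 17 listed members the rank correlation of log2 fold change with span was 0.56 and with the mean count -0.34 (Spearman, across genes that share the same libraries). Over the 2116 listed protein-coding genes the values were -0.020 and -0.086. The listed members came from all 6 chromosomes, with 5 on chromosome X, where 10 of the 40 lie. In the reference 11 of the 17 overlap another gene, and since the counting method and strand setting are not given, reads in such overlaps could belong to either. In 10 of these 11 the overlapping genes were themselves unlisted. The exception was *aakg-4*, which shares 21 bp with the myosin gene *hum-6*, listed at 2.26 ± 0.29 (log2 fold ± SE) in the authors' deposited table. *aakg-1*, with the highest fold, contains the non-coding RNA genes Y111B2A.32 and Y111B2A.33, neither of them listed.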

How the data were processed

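RNA was sequenced from 5 FLAG immunoprecipitates and 5 inputs. Titles gave the groups. STAR 2.5.2b-0, Bowtie2 2.3.0, DESeq2 1.12.3, Trim Galore and the build WBcel235 were used per the submitters' processing notes, which give no roles. Per the file headers, the authors deposited a mean signal over the libraries (normalized counts, averaged), a log2 fold change and its standard error, a score, a p-value and an adjusted p-value per gene. Each deposited p-value above 0 matches the normal upper tail of the score to a relative tolerance of 1e-06, so the authors tested one side. The number of genes tested, 20328, was recovered from the Benjamini-Hochberg adjustment.

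Names were matched to RefSeq's WBcel235 genes (2660 of 2732, and all 40 members). The one-sided test against a 2-fold change used the deposited fold and standard error, normal tails, and Benjamini-Hochberg adjustment over 20328 genes with unlisted ones at a p of 1. It was tested on simulated data drawn with normal errors of the deposited sizes, as the test assumes, which cannot show how it does on few reads. Combined standard errors are the root of the summed squares. Intervals are normal at 95%. All members but 1 and every listed gene of the other pathway lists are named, up to 10 per list. That listed insulin member enters the counts and medians, and its own result is not reported here. Members, lists and tests were chosen with earlier results of these data known. Python 3.11.15, pandas 2.3.3 and SciPy 1.17.1 were used.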

Additional observations from a re-analysis of the deposited data

How the results depend on the processing

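At a fold of at least 4, 9 of the 40 members were listed, with 1 insulin and 3 AMPK genes, beside 7.21% of all genes tested. Of the other pathway genes 8 were listed, in place of 22 of 127. With a test against a 2-fold change, 11 members passed, of them 1 of insulin (*pdk-1*), and 13 other pathway genes, beside 6.64% of all genes tested. At a mean normalized count of 1000 or more, 5 members remained listed, with 2 of insulin, 0 of AMPK and 0 of autophagy, and 8 other pathway genes. Listed genes with such a mean make up 2.7% of all genes tested. All counts for TOR were 3 under these alternatives. An adjusted p under 1e-05 left 16 members (without *ist-1*), beside 9.3% of all genes tested. A mean of at least 100 left 14, and listed genes with such a mean make up 8.24% of all genes tested. Leaving out the member that overlaps another listed gene, an alternative chosen after seeing the data, left 16. No paired analysis was possible because the table holds no values per library, and for the same reason no replicate could be left out. Depth per library is unknown, and low-mean members such as *ist-1* could enter the table only with a high fold.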

Other observations

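Within the spans of 3 unlisted members, non-coding RNA genes were listed. Inside *daf-2* lies the long non-coding RNA gene *linc-143* (chromosome III, 3035541 to 3037543, WBcel235), with a log2 fold change of 7.93 ± 1.09 (SE) on a mean normalized count of 7.93 in the authors' deposited table. Inside *daf-16* lie R13H8.5 at 5.86 ± 1.66 and R13H8.3 at 5.86 ± 1.92 (log2 fold ± SE) in the authors' deposited table. Inside *hlh-30* lies W02C12.4, at 6.79 ± 1.27 on a mean of 3.73 in the authors' deposited table. The 11 non-coding RNA genes inside unlisted members thus include 4 listed ones, and the 6 inside listed members include 0. Over all protein-coding genes, 77 of 2224 non-coding RNA genes inside unlisted genes were listed (3.46%) and 104 of 1079 inside listed genes (9.64%). The 4 have a median mean of 3.02 normalized counts, which is a few reads, the strand setting is not given, and whether these reads come from the non-coding RNA or from the pre-mRNA of the surrounding gene was not tested. The comparison was chosen after the values were seen.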
